A study of Drosophila melanogaster with 6 samples.

Results

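The dpr, DIP, beat and side genes of Drosophila melanogaster encode immunoglobulin-domain proteins, displayed or released by neurons and their targets, that act in wiring. Their signals were described in the heads of single-housed and group-housed males. Members were the probe sets of the expression array annotated to exactly 1 gene with a symbol of one of these families. That rule reads symbols and no measured value, but it was set with earlier results of these data known. There were 93 such probe sets of 51 genes, out of 18769 probe sets other than controls. The dpr family had 37 probe sets of 20 genes, the DIP family 16 of 10 genes, the beat family 18 of 13 genes and the side family 22 of 8 genes. Of the 54 genes with such symbols in RefSeq Release 6, beat-Ib, DIP-lambda and dpr21 were not analysed here. The single-housed males lived 1 to a vial for 6 days after eclosion, and the series calls them the more aggressive. Group-housed males lived 10 to a vial for the same 6 days. All flies of both groups were frozen in the same late afternoon hour, and RNA came from whole heads, with 20 heads pooled per sample. Each group had 3 arrays from samples the labels call biological replicates, and the strain was not given in the sources used here.

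Dpr and DIP proteins bind each other selectively across the gap between neurons, and matched pairs mark axons and their targets for synapse formation, best known in the optic lobe and at neuromuscular junctions. Dpr proteins are named after dpr1, which is needed for the avoidance of salt in the proboscis extension response. Beat and Side proteins form a parallel receptor and ligand system. Side is displayed along the path of embryonic motor axons, and Beat-Ia on the axons reads it and lowers their adhesion to each other at branch points. All of these families are best studied during development, and many members remain expressed in subsets of adult neurons.

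The deposited intensities had array medians from 24.2 to 31.6, so they were taken as log2(intensity + 16) and quantile normalized, which puts all arrays on 1 distribution. Across probe sets, which do not count as independent replicates, pairs of arrays correlated at 0.972 to 0.989. The dimmest 30% of probe sets, whose mean log2 signal was at or below 4.69, were left out, and 13138 were tested with limma. Differences below are single-housed minus group-housed on that log2 scale, with the standard error (SE) of the fit. They understate the change of dim probe sets. Of the neuronal markers 14 of 16 genes were found, all with a probe set above the cutoff, among them elav at 9.56 in single-housed heads and 9.73 in group-housed ones. The 7 photoreceptor markers found of 14 looked for were all above the cutoff. Markers of the male accessory gland and testis, organs outside the head, summed to normalized intensities of 69.0 to 113 in single-housed heads and 65.4 to 101 in group-housed ones over 8 probe sets, where the photoreceptor markers summed to 26961 to 30763 in single-housed heads and to 29131 to 30763 in group-housed ones. Of those 8 probe sets 5 still passed the cutoff, so passing it does not show that a gene is expressed in the head.

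Of the 93 member probe sets 76 passed the filter, or 81.7%, where 70.0% of all probe sets did. By family 33 of 37 dpr, 12 of 16 DIP, 14 of 18 beat and 17 of 22 side probe sets passed. All 20 dpr genes and all 8 side genes had at least 1 probe set that passed, as did 9 of 10 DIP and 12 of 13 beat genes. The exceptions were DIP-iota and beat-VII. DIP-iota had log2 signals of 4.78, 4.26 and 4.19 in single-housed heads and 4.51, 4.69 and 5.21 in group-housed heads. The beat-VII probe sets averaged 4.49 and 4.19 over all arrays. The mean over all arrays ran from 4.39 to 10.08 for dpr probe sets, from 4.25 to 7.62 for DIP, from 4.19 to 8.88 for beat and from 4.15 to 7.01 for side. Probe sets differ in how well they bind, so these ranges do not order the genes by expression.

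No member passed the threshold of a limma adjusted p of 0.05 (0 of 76, with 6 at an unadjusted p below 0.05). Over all probe sets 2 passed, 0.0152%. The lowest limma adjusted p among the members was 0.361, for side-V 1624713_at. That probe set passed the filter only through its group-housed values, so no weight is put on its p. It is counted among the lower members in the next sentences. The next lowest adjusted p was 0.499, for dpr7. At an unadjusted p below 0.05, 5 members lay lower and 1 higher in single-housed heads, which is 7.89% of the members against 8.24% of all probe sets tested, of which 3.67% lay lower and 4.57% higher. The groups did not overlap for 10 members, or 13.2%, beside 14.2% of all probe sets. By family these were 4 of 33 dpr (12.1%), 1 of 12 DIP (8.33%), 0 of 14 beat and 5 of 17 side probe sets (29.4%). The side count includes side-V 1624713_at, and its side-VI and side-VII probe sets overlapped with the deposited scaling. In 8 of the 10 the single-housed values were lower (7.95% of all probe sets) and in 2 higher (6.23% of all). With quantile normalization both shares of the 76 members, at p below 0.05 and without overlap, were close to those over the whole array. The direction of the separated members depended on the scaling. With the deposited scaling 7 did not overlap (9.21%, beside 12.3% of all), and all but side-V 1624713_at lay higher in single-housed heads. With that scaling only 26.6% of all probe sets lay below 0. Among the higher ones, dpr3 1626635_at passed the filter as reported only through its single-housed values. With median centring 8 did not overlap (10.5%, beside 9.51% of all), most of them lower, where 46.8% of all probe sets lay below 0. The limma interval of 95% lay wholly within a 1.5-fold difference either way for 56 of the 76 (73.7%, beside 75.0% of all probe sets). These intervals are on the log2(intensity + 16) scale and do not bound the signal of dim members that closely. In bulk heads, fewer cells of a type and less RNA per cell cannot be told apart.

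**Figure D1:**
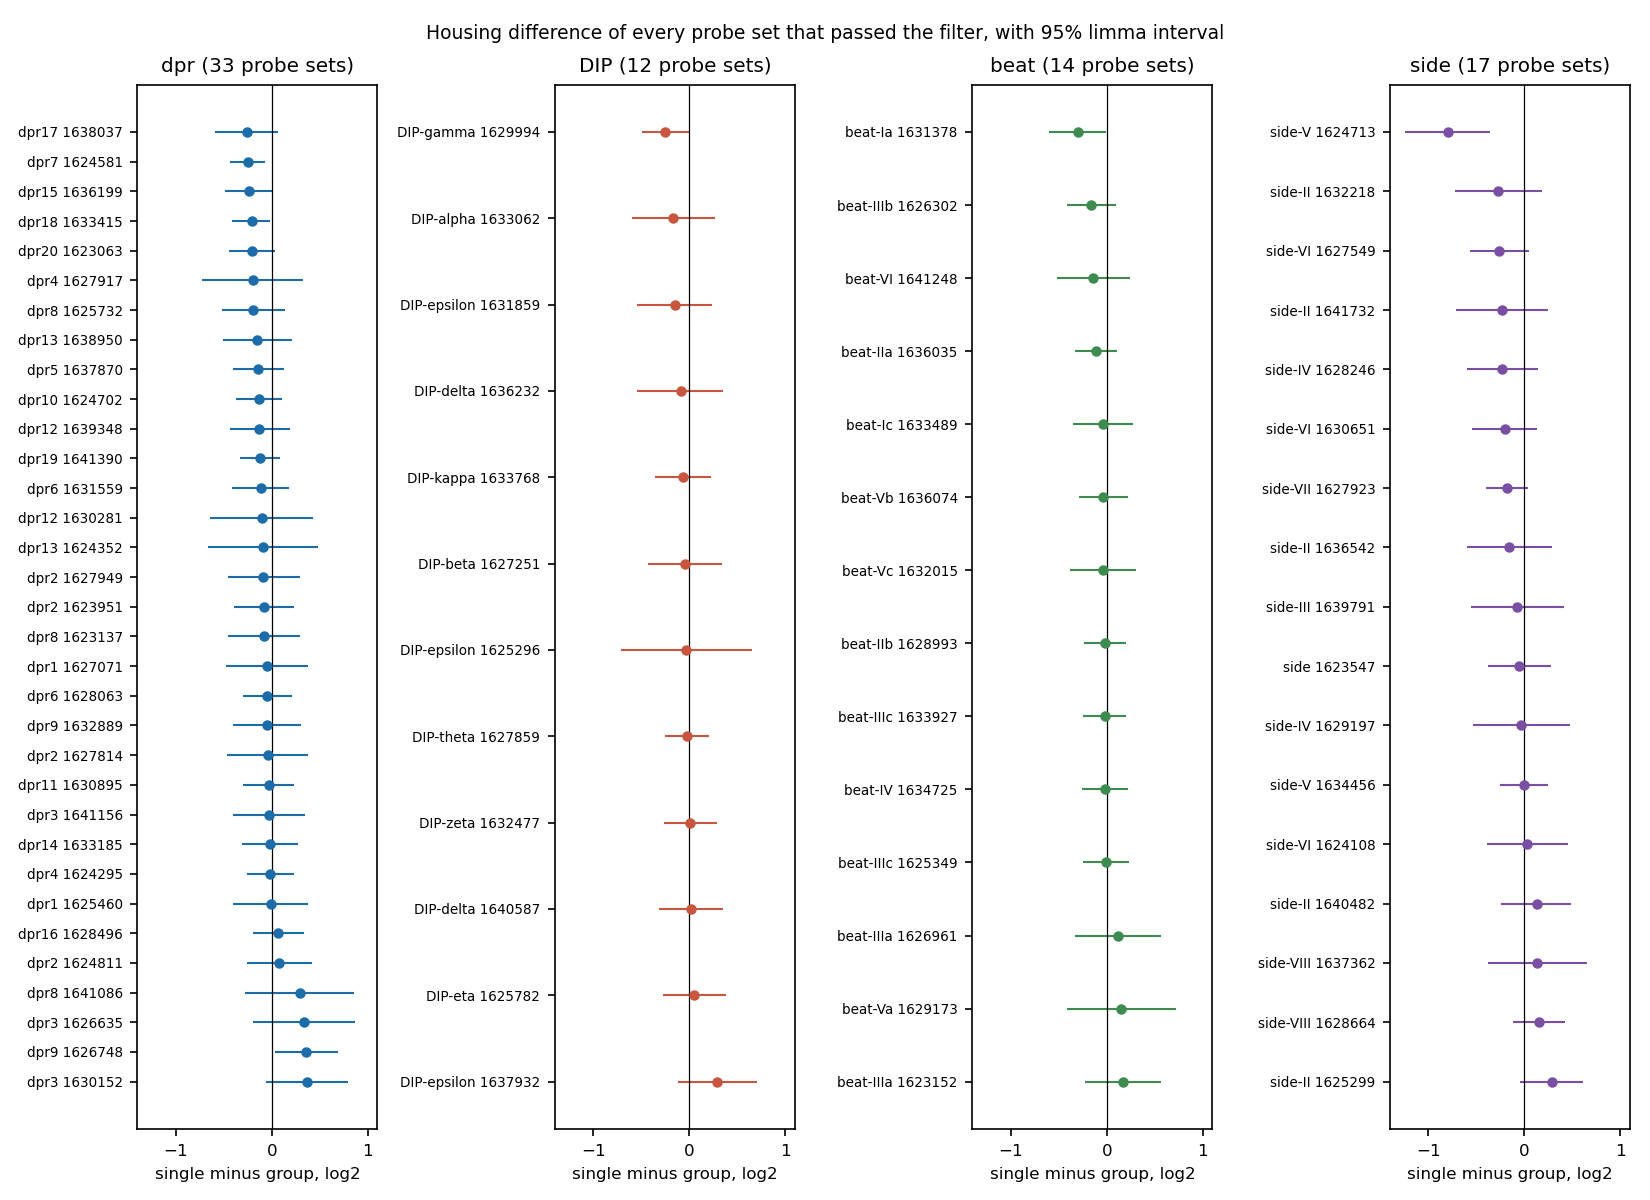
Housing difference of each of the 76 tested probe sets (x axis, single-housed minus group-housed, log2 scale; y axis, gene and probe set number), in a panel per family; dots are estimates and lines the 95% limma intervals, n = 3 arrays per group. Most intervals include 0, and side-V 1624713_at lies farthest out at -0.80.

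Of the tested dpr probe sets 27 of 33 lay below 0, with a median of -0.08. Over all probe sets tested the median was -0.02. With the deposited scaling in place of quantile normalization, the dpr median was 0.02, while the median of all probe sets was 0.0992. Set against all probe sets, the dpr median was thus 0.07 lower with quantile normalization (-0.07) and 0.08 lower with the deposited scaling or with median centring (-0.08 in both).

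Among dpr genes the smallest p belonged to dpr7, which encodes a cell-surface member of the family. Its log2 signals were 9.96, 9.86 and 10.04 in single-housed heads, against 10.19, 10.13 and 10.31 in group-housed heads. Every single-housed array lay below every group-housed array. The difference was -0.25 (SE 0.0791, limma p 0.0110, adjusted p 0.499). As deposited, however, the dpr7 intensities were 1128, 1035 and 958 in single-housed heads and 1152, 950 and 1194 in group-housed ones, which overlap, and the log2 difference was -0.07. On chromosome X, dpr18 showed a like pattern, with 9.21, 9.16 and 9.29 in single-housed heads and 9.38, 9.35 and 9.57 in group-housed ones. Its groups did not overlap after normalization and did as deposited, with differences of -0.21 (SE 0.0853, adjusted p 0.591) and -0.04.

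The third of the smallest p values in the family lay in the other direction. The dpr9 probe set 1626748_at had 5.38, 5.47 and 5.19 in single-housed heads, against 5.02, 4.95 and 4.98 in group-housed heads. The groups were separate here and remained so under the deposited scaling and median centring, with differences of 0.36, 0.44 and 0.36 (SE 0.146 and adjusted p 0.593 in the first). The other probe set of dpr9 did not share the difference, at 7.67, 7.55 and 7.65 in single-housed heads and 7.44, 7.53 and 8.05 in group-housed ones (-0.05). In deposited intensities 1626748_at was at 27.7, 28.4 and 22.4 in single-housed heads and 15.1, 11.9 and 18.2 in group-housed ones, so the separation rests on a dim signal.

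The neighbours dpr15 and dpr17 had nearly the same difference. In RefSeq Release 6 they lie on chromosome 3R with 1 protein-coding gene between them. The log2 signals of dpr15 were 7.12, 7.02 and 7.04 in single-housed heads and 7.19, 7.21 and 7.50 in group-housed ones, without overlap (-0.24, SE 0.110, adjusted p 0.620). For dpr17 they were 7.14, 7.09 and 7.41 in single-housed heads and 7.33, 7.34 and 7.77 in group-housed ones, with overlap (-0.26, SE 0.145, adjusted p 0.680). In both, group-housed replicate 3 gave the highest of the 6 values. As deposited, the groups of both genes overlapped, with differences of -0.12 for dpr15 and -0.13 for dpr17, and with median centring those of dpr15 overlapped (-0.21) and those of dpr17 did not (-0.22). The adjacent pair dpr4 and dpr5, also on 3R, lay at -0.02 and -0.20 for the probe sets of dpr4 and at -0.14 for dpr5. The remaining dpr genes with 1 probe set were at -0.21 (dpr20), -0.13 (dpr10), -0.12 (dpr19), -0.03 (dpr11) and -0.02 (dpr14).

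DIP genes encode the partners of the Dpr proteins, and they lay close to 0, with 8 of 12 values below 0 and a median of -0.04 (0.02 lower than all probe sets). With the deposited scaling the median was 0.03, which is 0.07 below that of all probe sets (-0.07). The smallest p was that of DIP-gamma, with 6.51, 6.27 and 6.38 in single-housed heads, against 6.67, 6.68 and 6.55 in group-housed heads. These groups did not overlap, and the difference was -0.25 (SE 0.107, limma p 0.0472, adjusted p 0.605). Under the deposited scaling they overlapped, at -0.15. DIP-epsilon was next, through 2 probe sets that lay on opposite sides of 0. One of them, 1637932_at, had 5.04, 5.22 and 4.99 in single-housed heads and 5.05, 4.57 and 4.75 in group-housed ones (0.29, SE 0.182, adjusted p 0.707). For 1631859_at the values were 5.45, 5.48 and 5.06 in single-housed heads and 5.38, 5.35 and 5.70 in group-housed ones (-0.15, SE 0.171, adjusted p 0.851). Of the DIP genes with 1 tested probe set, DIP-theta was at -0.02, DIP-zeta at 0.01, DIP-eta at 0.05, DIP-kappa at -0.07, DIP-beta at -0.04 and DIP-alpha at -0.17.

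The beat genes encode receptors and relatives of the motor axon guidance protein Beat-Ia, and 11 of their 14 values lay below 0, with a median of -0.03. That was 0.01 below all probe sets under each of the 3 scalings (-0.01), although the median itself was 0.09 with the deposited scaling. Without group-housed replicate 3 it was 0.02. With quantile normalization no tested beat probe set had groups that did not overlap (0 of 14, beside 14.2% of all probe sets). With the deposited scaling beat-IIIa 1623152_at had separate groups, higher in single-housed heads (0.24). Another probe set of beat-IIIa, 1635556_at, was too dim for the test. Its normalized groups did not overlap, with 4.58, 4.46 and 4.44 in single-housed heads and 4.23, 4.15 and 4.07 in group-housed ones. The founding member beat-Ia had 6.95, 6.58 and 6.83 in single-housed heads, against 7.16, 6.91 and 7.20 in group-housed heads. Single-housed replicate 1 lay above group-housed replicate 2, and otherwise the group-housed values were higher (-0.30, SE 0.130, limma p 0.0453, adjusted p 0.602), with a difference of -0.19 under the deposited scaling. The value for beat-IIIb, at 6.60, 6.59 and 6.49 in single-housed heads and 6.74, 6.55 and 6.86 in group-housed ones, was -0.16 (SE 0.111, adjusted p 0.743), or -0.05 with the deposited scaling. For beat-IIa it was -0.11 (SE 0.0965, adjusted p 0.796), from 8.85, 8.77 and 8.86 in single-housed heads and 8.88, 8.81 and 9.12 in group-housed ones, and it turned to 0.03 with the deposited scaling. The other tested beat probe sets ran from -0.14 for beat-VI to 0.17 for beat-IIIa.

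Side and its relatives are the surface ligands of Beat proteins. Their family had 11 of 17 values below 0 and a median of -0.08, 0.06 lower than all probe sets. With the deposited scaling the median was -0.03, which is 0.13 below all probe sets (-0.13). It held the largest difference of any member. The side-V probe set 1624713_at had 4.40, 4.44 and 4.22 in single-housed heads, against 4.91, 5.42 and 5.12 in group-housed heads. The deposited intensities were 4.64, 4.78 and 3.51 in single-housed heads and 12.8, 22.3 and 21.4 in group-housed ones. Every single-housed array was thus below every group-housed array before and after normalization, and the log2 difference was -0.80 (SE 0.193, adjusted p 0.361). The probe set passed the filter only through its group-housed values, so no weight is put on its p, and no fold is given against a group below the cutoff. Because the signal is dim, its size depended on the intensity added before taking logs, with differences from -1.95 to -0.29 over the alternatives. The single-housed mean of 4.35 lay below the filter cutoff of 4.69, and the mean over all arrays, 4.75, lay just above it.

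The other side-V probe set did not share this difference. It had 6.01, 5.98 and 5.95 in single-housed heads and 5.94, 6.09 and 5.91 in group-housed ones, a difference of 0.00 (SE 0.110) with overlapping groups. For side-II, the probe set 1625299_at had 5.14, 5.22 and 5.18 in single-housed heads, against 4.90, 4.84 and 4.95 in group-housed heads. The groups did not overlap under any of the 3 scalings (0.29, SE 0.144, adjusted p 0.647). Its deposited intensities were 20.3, 21.0 and 22.3 in single-housed heads and 12.6, 9.82 and 17.6 in group-housed ones, so the signal is dim. The other tested side-II probe sets had overlapping groups and ran from -0.27 to 0.13. For side-VI, 2 of the 3 probe sets had lower single-housed values without overlap. One was 1627549_at, with 5.41, 5.38 and 5.36 in single-housed heads and 5.75, 5.45 and 5.73 in group-housed ones (-0.26, SE 0.135, adjusted p 0.665). The other, 1630651_at, was at -0.20 and the third, 1624108_at, at 0.03. The single probe set of side-VII had 6.91, 6.81 and 7.05 in single-housed heads and 7.09, 7.12 and 7.11 in group-housed ones, also without overlap (-0.18, SE 0.0970, adjusted p 0.668). As deposited, the groups of side-VII and of both these side-VI probe sets overlapped, with differences of -0.07 for side-VII, -0.17 for 1627549_at and -0.14 for 1630651_at. Both probe sets of side-VIII lay above 0, at 0.15 and 0.13, and side itself was at -0.05.

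**Figure D2:**
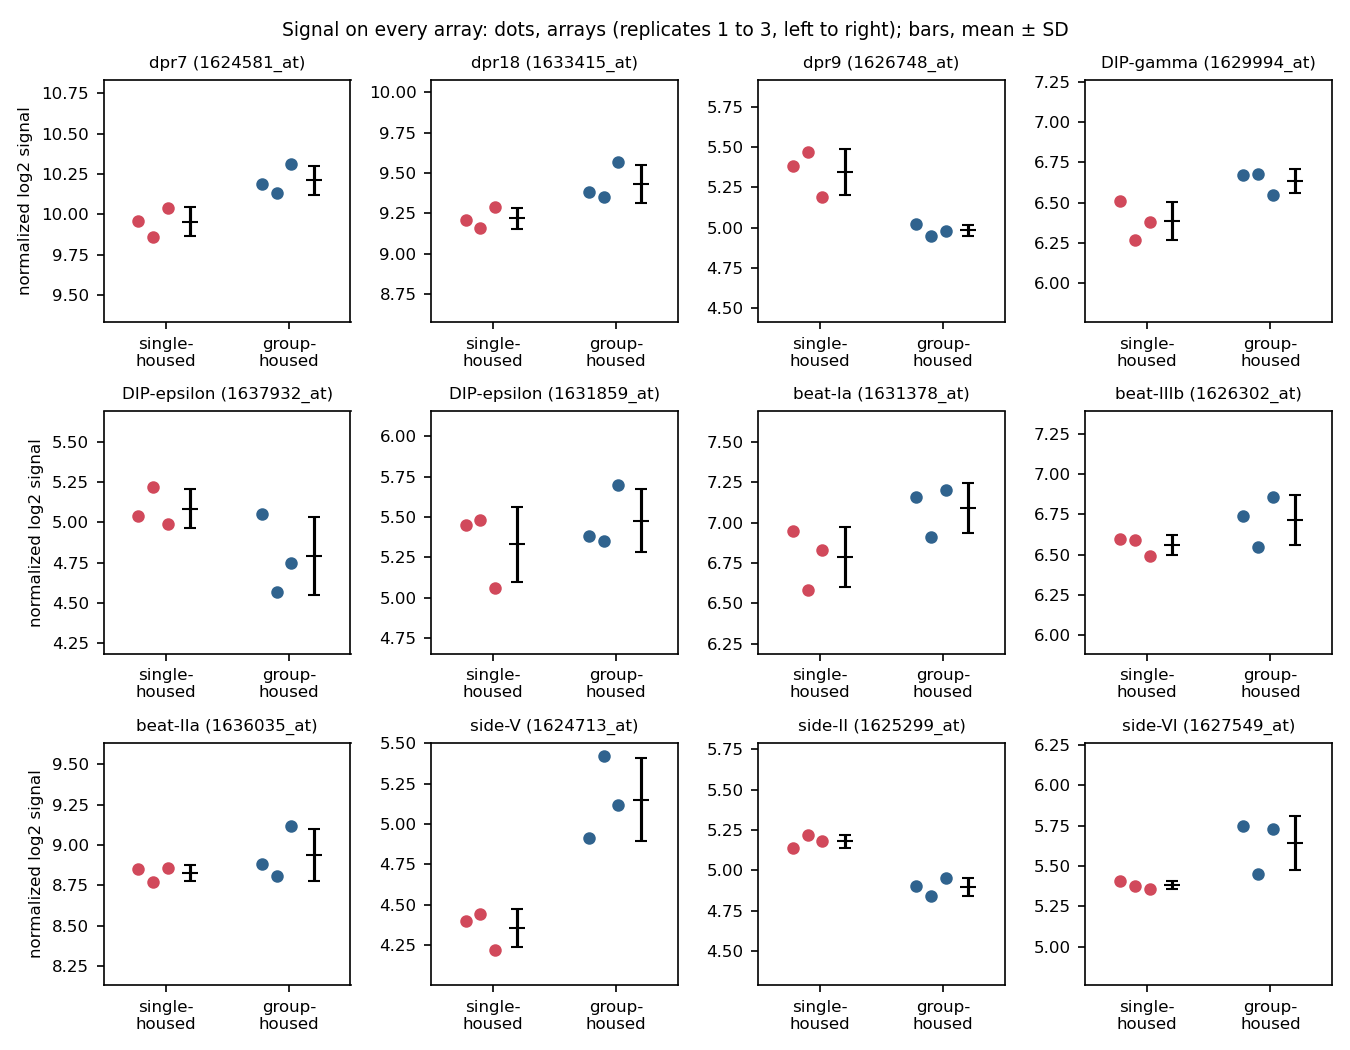
Normalized log2 signal (y axis, each panel spanning 1.5 units) on every array for the 12 probe sets with an unadjusted limma p below 0.05 or among the smallest p values of their family, single-housed left and group-housed right; dots are arrays and bars mean ± SD, n = 3. The groups do not overlap in 7 of the 12 panels, and in 4 of 12 with the deposited scaling or with median centring. Over all probe sets tested these shares were 14.2%, 12.3% and 9.51%. The 12 were picked by their small p, so a higher share among them is no result about the families.

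Pairs of proteins known to bind each other are given side by side. DIP-gamma, at -0.25 above, binds Dpr11 in the matching of photoreceptors to their targets. The signals of dpr11 were 6.93, 6.91 and 6.83 in single-housed heads and 6.84, 6.79 and 7.14 in group-housed ones, overlapping (-0.03, SE 0.116). DIP-alpha, which binds Dpr6 and Dpr10, had 4.88, 5.53 and 5.03 in single-housed heads and 5.36, 5.22 and 5.35 in group-housed ones (-0.17, SE 0.190). Its partner dpr10 had 7.45, 7.31 and 7.53 in single-housed heads and 7.69, 7.42 and 7.57 in group-housed ones (-0.13, SE 0.106). The tested probe sets of dpr6 were at -0.05 and -0.11, and 1628063_at, at -0.05, had 6.87, 6.89 and 6.91 in single-housed heads and 6.74, 6.96 and 7.11 in group-housed ones. Apart from DIP-gamma, the groups of these genes overlapped.

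DIP-delta and Dpr12 pair at synapses of the mushroom body. The DIP-delta probe sets were at -0.09 and 0.02, with values from 4.90 to 5.36 in single-housed heads and from 4.84 to 5.47 in group-housed ones. The dpr12 probe set 1639348_at had 6.67, 6.51 and 6.30 in single-housed heads and 6.51, 6.84 and 6.52 in group-housed ones (-0.13, SE 0.137). Side, the ligand of Beat-Ia, had 5.64, 5.51 and 5.67 in single-housed heads and 5.62, 5.45 and 5.88 in group-housed ones (-0.05, SE 0.145). For beat-IV, which was set beside side-II, the signals were 8.81, 8.62 and 8.85 in single-housed heads and 8.77, 8.62 and 8.95 in group-housed ones (-0.02, SE 0.107). The groups of DIP-delta, dpr12, side and beat-IV overlapped. For side-II, 1625299_at had separate groups as given above, while those of its other tested probe sets overlapped. The difference between partners was not tested.

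Of the 51 genes, 23 had more than 1 probe set, 65 in all, and their probe sets often disagreed. In 15 of the 23 genes the probe sets lay on both sides of 0. Counting only probe sets that passed the filter, 18 genes had more than 1, and 9 of these had values on both sides. The side-II gene had 6 probe sets, from -0.27 for 1632218_s_at to 0.32 for 1627397_at, which did not pass. The 5 of side-III ran from -0.13 to 0.52, and 1 of them passed, at -0.08. All 4 probe sets of dpr2 passed and lay from -0.09 to 0.08. For dpr3, 1630152_at had 5.21, 5.30 and 5.26 in single-housed heads and 4.85, 5.23 and 4.60 in group-housed ones (0.37). The other dpr3 probe sets, 1626635_at and 1641156_at, were at 0.34 and -0.03. Of these, 1626635_at passed the filter only through its single-housed values, as its group-housed mean of 4.61 lay below the cutoff. The 3 of dpr8 were at -0.19, -0.08 and 0.29, and the 4 of DIP-beta, 1 of which passed, ran from -0.34 to 0.22.

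Among the other genes, the probe sets of beat-IIIc, dpr1 and dpr13 lay close to each other. Those of beat-IIIc were at -0.01 and -0.02, those of dpr1 ran from -0.06 to -0.01, and those of dpr13 were at -0.15 and -0.09. The rest lay farther apart. The probe sets of beat-IIIa ran from 0.12 to 0.34, those of dpr6 from -0.23 for 1641016_at to -0.05, and those of dpr12 from -0.13 to 0.24. The third DIP-epsilon probe set, 1625296_at, was at -0.03. The probe sets of side-IV were at -0.23 and -0.03, those of beat-VI at -0.14 and 0.07, those of dpr16 at 0.07 and -0.28 and those of beat-VII at -0.08 and 0.43. Too dim for the test were the second of beat-VI, the second of dpr16, both of beat-VII, the lowest of dpr1 and of dpr6, and the highest of dpr12 and of beat-IIIa. Probe sets of 1 gene can report different transcripts, and which transcripts each one covers was not given in the files used here.

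**Figure D3:**
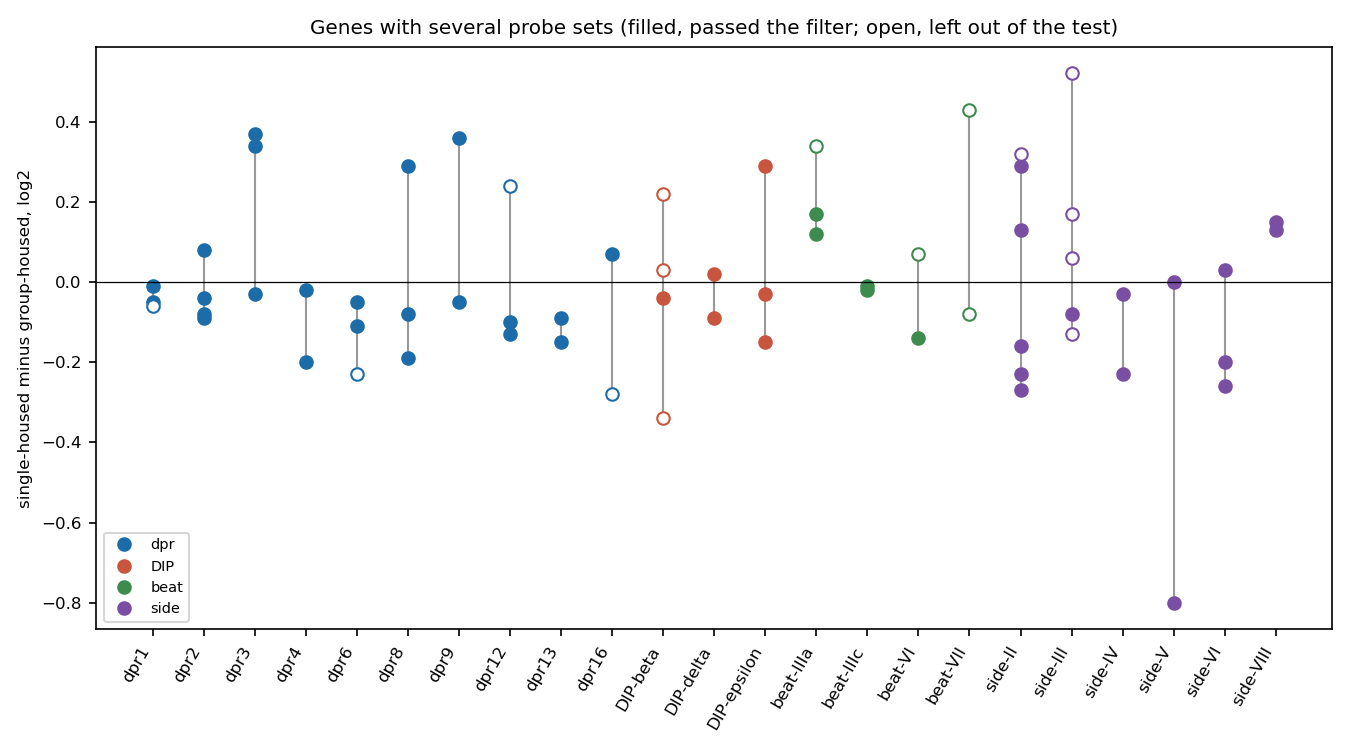
Housing difference (y axis, single-housed minus group-housed, log2) of each probe set of the 23 genes with several (x axis), coloured by family; filled dots passed the filter, open dots did not, and grey lines join the probe sets of 1 gene. The probe sets of side-V span from -0.80 to 0.00, the widest span of the 23.

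Direction was read over all tested members as well. With quantile normalization 57 of 76 lay below 0 (75.0%), beside 54.6% of all probe sets, and with the deposited scaling 32 of 76 (42.1%), beside 26.6%. With median centring the shares were 67.1% and 46.8%. The excess over all probe sets was thus present under each of the 3 scalings, while the majority itself turned with the deposited one. Split by signal, with limits chosen after the values were seen, 16 of 17 members above a mean of 7 lay below 0 (57.0% of all probe sets that bright), 24 of 30 between 5.5 and 7 (54.4%), and 17 of 29 up to 5.5 (51.2%). The single bright exception was side-VIII 1628664_at at 0.15. For the 17 bright members the count was 8 with the deposited scaling (17.4% of all) and 11 with median centring (38.9%).

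Group-housed replicate 3 stood apart in these counts. It gave the highest of the 6 values for 27 of the 76 members (35.5%), beside 24.1% of all probe sets, and group-housed replicate 1 for 2 (2.63%, beside 16.7%). Without group-housed replicate 3, 45 members lay below 0 (59.2%, beside 53.6% of all), and of the 17 bright ones 11 did (55.3% of all). Of the family medians, those of DIP and beat were then 0.00 and 0.02, and those of dpr and side both -0.06.

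**Figure D4:**
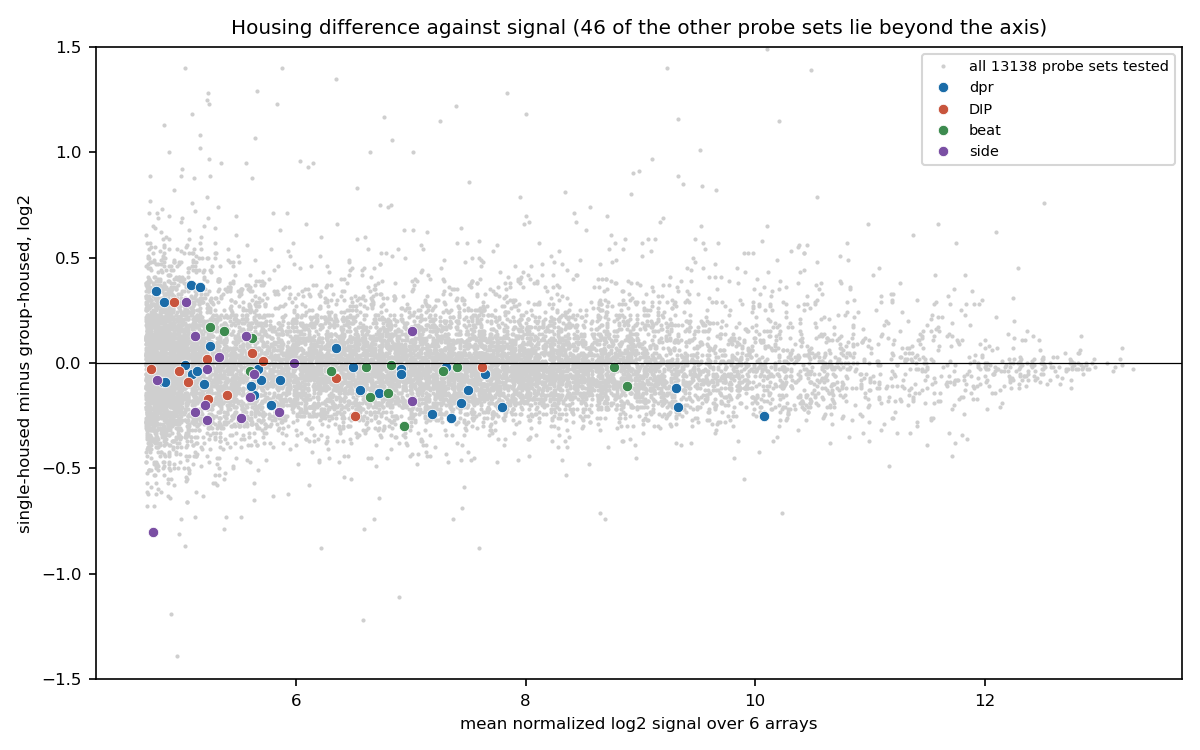
Housing difference (y axis, single-housed minus group-housed, log2) against the mean normalized log2 signal over 6 arrays (x axis); grey dots are all 13138 probe sets tested and coloured dots the 76 members by family, with 46 grey dots beyond the axis. The 17 members above a signal of 7 lie below 0 apart from side-VIII; with the deposited scaling 8 of them lay below 0.

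Other cell-surface and guidance genes of neuronal wiring, a list of 56 that includes the Dscam, Robo, semaphorin and teneurin families, were compared in the same fit. Of these 47 were found, with 71 probe sets tested. None passed the threshold (0 in limma), and 1 had an unadjusted p below 0.05, beside 8.24% of all probe sets. Of the 71, 48 lay below 0 (67.6%, beside 54.6% of all), and the median was -0.04, beside -0.02. On the values as deposited, 20 of the 71 lay below 0, beside 26.6% of all, and the median was 0.06, beside 0.0992. With median centring 43 did, beside 46.8% of all, with a median of -0.03, beside 0.0121. The 1 was Ama, which encodes a secreted immunoglobulin-domain protein of the nervous system, with 4.43, 4.91 and 4.92 in single-housed heads, against 5.41, 5.53 and 5.50 in group-housed heads. Its groups did not overlap (-0.73, SE 0.178, adjusted p 0.361).

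The part of other cell types in these values was not tested, and their marker lists are given beside them. Neuronal markers had 16 of 21 probe sets below 0 and a median of -0.05, beside -0.05 for the members, with summed normalized intensities of 15831 to 17953 in single-housed heads and 16711 to 20552 in group-housed ones. Photoreceptor markers had 7 of 7 below 0 (median -0.16) and muscle markers 8 of 10 (median -0.08), while glial markers had 2 of 11 (median 0.05) and fat body markers 0 of 4 (median 1.08). With the deposited scaling the medians were 0.10 for neuronal, 0.06 for photoreceptor, 0.07 for muscle, 0.21 for glial and 1.25 for fat body markers, so the first 3 changed sign. With median centring they were 0.02, -0.03, -0.02, 0.12 and 1.16 in the same order. The member median was 0.04 with the deposited scaling and -0.05 with median centring, where all probe sets had 0.0992 and 0.0121. The members and the neuronal markers thus had the same median with quantile normalization only. The fat body sums were 23307 to 25112 in single-housed heads and 13414 to 19927 in group-housed ones, which do not overlap. By gene the fat body differences were 1.63 for Lsp2, 1.39 for fit and 0.76 for Obp99b. The other gene, apolpp, was at 0.06 with overlapping groups, so the list did not move as a whole. In group-housed heads Lsp2 varied widely, at 11.64, 12.57 and 9.25. None of these lists had a probe set past the threshold (0 in limma, with 6 at an unadjusted p below 0.05 over all of them). The 6 were 3 of 4 fat body, 2 of 10 muscle and 1 of 21 neuronal probe sets. Glial markers had 0 of 11 and photoreceptor markers 0 of 7, and over all probe sets the share was 8.24%.

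In RefSeq Release 6 the member genes are long and partly clustered. Their median span was 33.6 kb, from 21.0 kb for dpr to 58.5 kb for side, beside 2.16 kb for all 13962 protein-coding genes. Of the 51 genes, 21 lie on chromosome 3R, 15 on 2L, 5 on 2R, 5 on X, 4 on 3L and 1, dpr7, on chromosome 4. Neighbours of 1 family did not share a direction throughout. The cluster of beat-Va, beat-Vb and beat-Vc lay at 0.15, -0.04 and -0.04, and beat-IIa and beat-IIb at -0.11 and -0.02. On 2L, beat-Ia and beat-Ic, with 6 protein-coding genes between them, were at -0.30 and -0.04, and DIP-eta and DIP-theta, with 1 between, at 0.05 and -0.02.

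**Figure D5:**
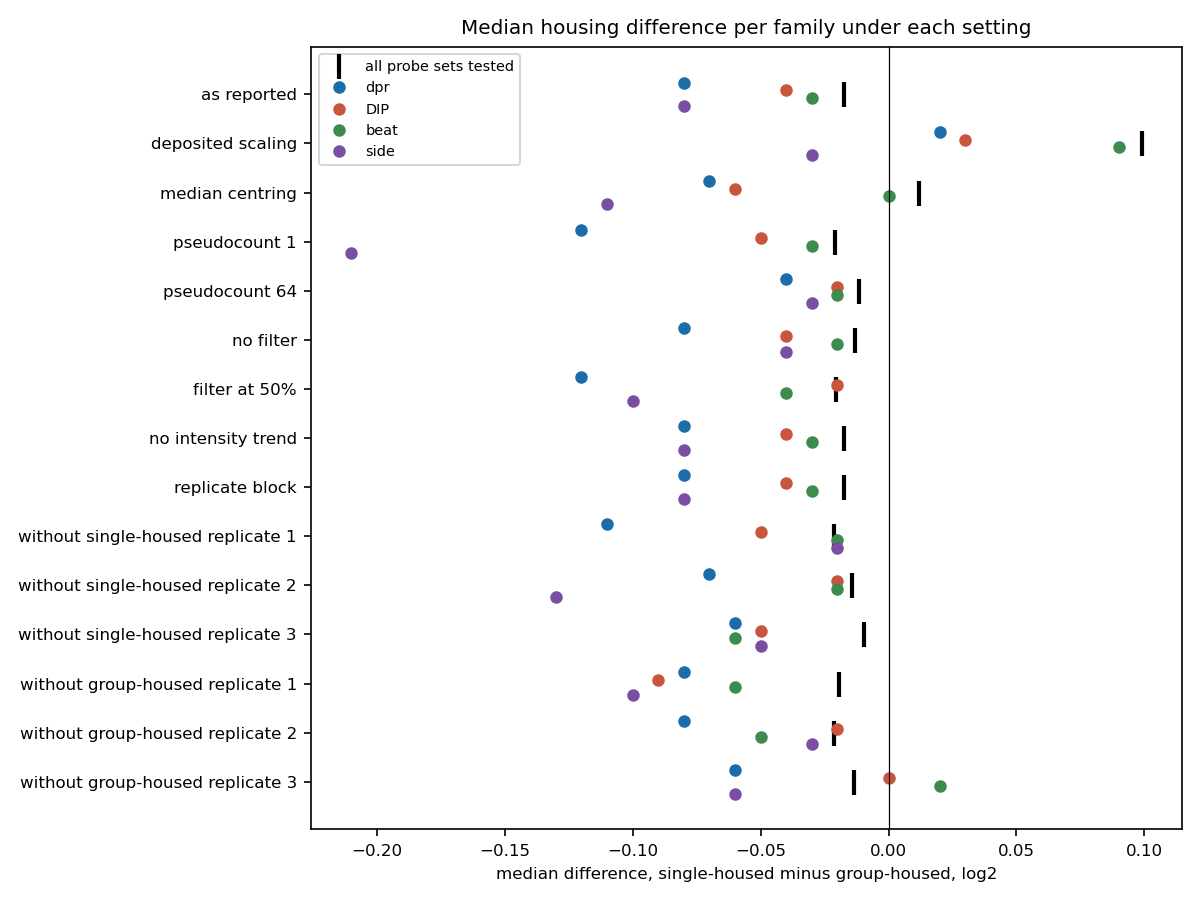
Median housing difference of each family (coloured dots) and of all probe sets tested (black bars) on the log2 scale (x axis, single-housed minus group-housed) under each setting (y axis). With the deposited scaling the medians of dpr, DIP and beat are 0.02, 0.03 and 0.09 and that of all probe sets is 0.0992, so the sign of those families turns, and in that setting all 4 families lie below all probe sets.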

How the data were processed

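Head RNA of male flies was hybridised to 1-colour Affymetrix arrays, 1 per sample, per the labels' protocols. The values deposited by the authors are linear intensities per probe set; their summarisation, background correction and scaling are unknown, since no label or header records them. Control probe sets (183 of 18952) were left out. Genes came from the platform annotation, with all 51 member genes matched by gene ID to RefSeq Release 6. A probe set listed with 2 genes, one of them of the DIP family, was not used. Log2(intensity + 16) values were quantile normalized, as array medians differed by 0.24, and filtered at 30%. They were fitted with limma 3.58.1 in R 4.3.3 (eBayes with an intensity trend, Benjamini-Hochberg adjustment over 13138 probe sets, 2-sided). The script was tested on simulated data.

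The members, lists and limits were chosen with earlier results of these data known. Values on every array were planned for members with an unadjusted p below 0.05, the 3 smallest p values of each family, genes with several probe sets and known binding pairs; most genes with several probe sets are given by their differences or range instead, and the values of dpr15, dpr17 and side-VII, outside that rule, were added after they were seen. The number of arrays limits the precision, and p-values measure the spread between these samples. Alternatives were other scalings, pseudocounts, filters and fits, and each array left out. Sequences were not used here.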

Additional observations from a re-analysis of the deposited data

How the results depend on the processing

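No member passed the threshold under any of the 14 alternatives (0 in limma in each, with 2 to 9 at an unadjusted p below 0.05 and a lowest adjusted p of 0.175, for side-V with the deposited scaling). Those 2 to 9 were 2.63% to 11.5% of the members tested, beside 4.60% to 11.2% of all probe sets. No weight is put on the p of that side-V probe set, for the reason given above. The count over all probe sets, 2 as reported, was 78 with the deposited scaling (69 higher and 9 lower), 11 with median centring (all higher), 1 with a pseudocount of 64, without a filter or with the filter at 50%, and 0 without the intensity trend (985 at an unadjusted p below 0.05). Leaving out each array in turn gave 0 to 47. Fitting the replicate number as a block gave 32 calls over all probe sets and 0 among the members. The deviations of same-numbered arrays correlated at 0.03, 0.11 and 0.33, and not every array correlated best with its own number, so the numbers were not taken as a pairing. The beat median was 0.09 with the deposited scaling and the side median -0.21 with a pseudocount of 1, against -0.03 and -0.08 as reported. Of the 12 probe sets shown singly, 7 had groups that did not overlap as reported, and 4 with the deposited scaling or median centring. These 12 were picked by their small p, so their counts do not stand for the families. Among them, beat-IIa turned to 0.03 with the deposited scaling while the other 11 kept their direction in every alternative that tested them. The alternatives reuse the same arrays, and the 12 were picked from the reported fit, so a kept direction adds no evidence of a difference. The cause of the shifts between alternatives was not tested. With 1 array left out, the medians ran from -0.11 to -0.06 for dpr, from -0.09 to 0.00 for DIP, from -0.06 to 0.02 for beat and from -0.13 to -0.02 for side. Dim probe sets were the least certain, and side-V 1624713_at was tested in 11 of the 14 alternatives.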
